A study of Mus musculus with 40 samples.

Results

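The genes described here handle metals in the heart: the metallothioneins *Mt1* and *Mt2*, the metal importers *Slc39a14* and *Tfrc*, the ferritin chains *Fth1* and *Ftl1*, the iron exporter *Slc40a1*, the copper ferroxidase *Cp*, the heme-degrading enzyme *Hmox1* and the iron hormone *Hamp*. They were chosen as rows by gene name. All 10 were among the 17223 genes of the female table, and 9 were among the 17646 genes of the male table, where *Hamp* was not listed. RNA was sequenced from the hearts of male and female CM-Il11-Tg mice, in which *Il11*, a cytokine of the IL-6 family, is switched on in cardiomyocytes. The labels give the tissue as heart, and the paper describes it as left ventricular. CM-Il11-Tg mice carried 1 copy each of α-MHC-MerCreMer (MCM), a tamoxifen-activated Cre under a promoter of heart muscle cells, and of the *Rosa26-Il11* transgene. The transgene came from a C57BL/6N background and MCM from C57BL6/J. Mice aged 8 weeks received tamoxifen on 5 days in a row, and hearts were taken 1, 3 or 6 weeks later. Controls were littermates of the same age with MCM and without *Rosa26-Il11*, also given tamoxifen, whose interval after tamoxifen the labels do not state. The uninduced group carried both transgenes and received no tamoxifen, so its comparison with controls mixes genotype with tamoxifen and the contributions cannot be told apart. Of 40 libraries, 38 had labels that agreed on a group. These formed 10 groups of 4 mice, except for 3 mice in the male control group and 3 in the male 6-week group. Values are library-size-scaled read counts (CPM) as deposited, and the male and female tables were scaled separately, so no test crossed the sexes.

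Metallothioneins are small cysteine-rich proteins that bind zinc and copper, and their genes are switched on by the zinc-sensing factor MTF1 at metal response elements. ZIP14, the product of *Slc39a14*, imports zinc and iron that is not bound to transferrin, whereas the transferrin receptor *Tfrc* takes up iron carried by transferrin. Ferritin stores iron, ferroportin (*Slc40a1*) is the known route of iron out of cells, and hepcidin (*Hamp*) closes ferroportin. When iron is scarce, iron regulatory proteins bind stem-loops called iron-responsive elements in messenger RNAs, which blocks translation of ferritin and ferroportin and stabilises *Tfrc* mRNA. In the liver, cytokines of the IL-6 family raise *Hamp*, the metallothioneins and *Slc39a14* through STAT3. The data here are messenger RNA levels, and neither protein nor metal was measured.

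The stem-loops that tie 4 of these genes to iron are shown because a search for their pattern divides the group into messages with and without a match. A search of the whole canonical transcripts (GRCm39, GENCODE), coding sequence included, looked for a bulged C, 5 paired bases on either side and the loop CAGTGN. It found matches, at any position, in 289 of 21770 protein-coding transcripts (1.328%). Among the 10 genes it found 1 match at the 5′ end of *Fth1* (chr19:9960097-9960123, + strand), 1 at the 5′ end of *Ftl1* (chr7:45109204-45109230, − strand), 1 at the 5′ end of *Slc40a1* (chr1:45964626-45964652, − strand) and 4 at the 3′ end of *Tfrc*, of which the first lies at chr16:32450038-32450064 and the last at chr16:32450529-32450555 on the + strand. No match was found in the other 6 genes. A missing match does not show that a message cannot be bound, since only 1 strict pattern was searched and no binding was measured. The loop is in capitals.
Fth1: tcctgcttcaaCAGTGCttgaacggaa
Ftl1: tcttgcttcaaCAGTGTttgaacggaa
Slc40a1: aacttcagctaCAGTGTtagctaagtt
Tfrc first: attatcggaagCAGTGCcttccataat
Tfrc last: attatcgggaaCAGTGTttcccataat

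The region upstream of the metallothionein genes is shown because *Mt1* and *Mt2* were the members of this group that rose most in males, and *Mt2* in both sexes. They are neighbours on chromosome 8 (*Mt2* chr8:94898819-94900207 and *Mt1* chr8:94905710-94906955, GRCm39, + strand). The 250 bases before each RefSeq start are given on GRCm38.p6, at chr8:94178839-94179088 for *Mt1* and chr8:94172368-94172617 for *Mt2*, both on the + strand. Capitals mark the metal response element core, TGCACNC or TGCGCNC, on either strand. In the window of 250 bases before and 50 after the start, the core occurred 3 times at *Mt1* (1 before the start) and 4 times at *Mt2* (3 before the start). The remaining *Mt1* cores lay at bases 3 to 9 and 21 to 27 after the start. Only 1 RefSeq start per gene was searched and the counts depend on it, so the genes are not ranked by them. It occurred in 25.7% of all 32851 RefSeq windows of this length, so these letters alone are common.
Mt1: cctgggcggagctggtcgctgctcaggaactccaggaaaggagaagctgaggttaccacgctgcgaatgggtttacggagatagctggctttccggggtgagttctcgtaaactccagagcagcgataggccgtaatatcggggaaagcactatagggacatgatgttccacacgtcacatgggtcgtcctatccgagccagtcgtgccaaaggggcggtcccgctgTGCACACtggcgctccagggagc
Mt2: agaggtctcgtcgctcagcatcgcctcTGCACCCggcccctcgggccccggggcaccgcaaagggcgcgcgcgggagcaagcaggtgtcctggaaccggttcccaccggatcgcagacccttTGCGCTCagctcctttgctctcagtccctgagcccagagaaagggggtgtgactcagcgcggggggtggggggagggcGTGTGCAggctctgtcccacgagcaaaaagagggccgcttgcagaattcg

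The windows of 7 of the 10 genes were available, and *Slc39a14*, *Slc40a1* and *Hmox1* were not matched. *Tfrc* held 2 core matches that overlapped on opposite strands, and the windows of *Hamp*, *Fth1*, *Ftl1* and *Cp* held none. The STAT motif TTCNNNGAA, present in 8.3% of all windows, was found at *Hamp* and at no other of the 7. The antioxidant response core TGACNNNGC, present in 12.4% of windows, was found at *Mt2* only.

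The libraries held 16663513 to 65333832 reads in males and 19147947 to 30929192 in females. *Il11* checked the labels: it was at 0 to 0.166 CPM in controls, 15.5 to 49.1 CPM in uninduced hearts and 328 to 819 CPM after tamoxifen. Messages that mark cell types moved with induction. For comparison, at 6 weeks 16.2% of all tested genes were called higher and 10.9% lower in males, and 21.7% and 21% in females. At 6 weeks, all 9 macrophage markers were higher in both sexes, with a summed level of 233–377 CPM in male controls and 964–1368 CPM at 6 weeks (female 217–281 and 1179–1341 CPM). Of 6 fibroblast markers, 5 were higher in both sexes, and of 6 endothelial markers, 4 were lower in both. The summed cardiomyocyte markers went from 51601–62280 to 32338–43044 CPM in males, where 1 of 8 markers fell, and from 36285–54163 to 32024–41407 CPM in females, where 4 of 8 fell. Red cell markers, 7 of 7, were higher in females at 1 week only among the 3 time points. At 1 week 15.3% of all tested genes were higher in females. In these bulk hearts a change in the number of cells of a type and a change in RNA per cell cannot be told apart, and the part of cell makeup in the results below was not tested. Some libraries stood apart. Uninduced female replicate 3 had *Mt2* at 151 CPM, against 17.6 to 24.0 CPM in the other uninduced females. Male 6-week replicate 4 had the hemoglobin gene *Hba-a1* at 5733 CPM, against 745 and 826 CPM in the other 2 hearts of its group.

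Following tamoxifen, 6 of these genes rose in both sexes at every time point: *Mt1*, *Mt2*, *Slc39a14*, *Ftl1*, *Hmox1* and *Cp*. *Slc40a1* fell in males at every time point and in females at 3 and 6 weeks, and *Tfrc* fell in females at all 3. A gene was called when limma, fitted across all genes of a sex on log2(CPM + 0.5), gave an adjusted p (Benjamini-Hochberg) under 0.05. In 1-week males 7 of 9 genes were called higher and 1 lower, where 18.9% of all tested genes were called higher and 14.6% lower. At 3 weeks 6 were higher and 1 lower, against 13.2% and 8.1% of all tested genes, and at 6 weeks again 6 and 1, against 16.2% and 10.9%. In females, 6 of 10 were higher and 1 lower at 1 week (15.3% and 13.1% of all tested genes), 6 and 2 at 3 weeks (16.8% and 14.5%), and 6 and 2 at 6 weeks (21.7% and 21% of all tested genes). The median log2 change of the 9 male genes at 6 weeks was 0.98, compared to −0.01 over all tested genes, and that of the 10 female genes was 1.17, compared to −0.02.

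**Figure D1:**
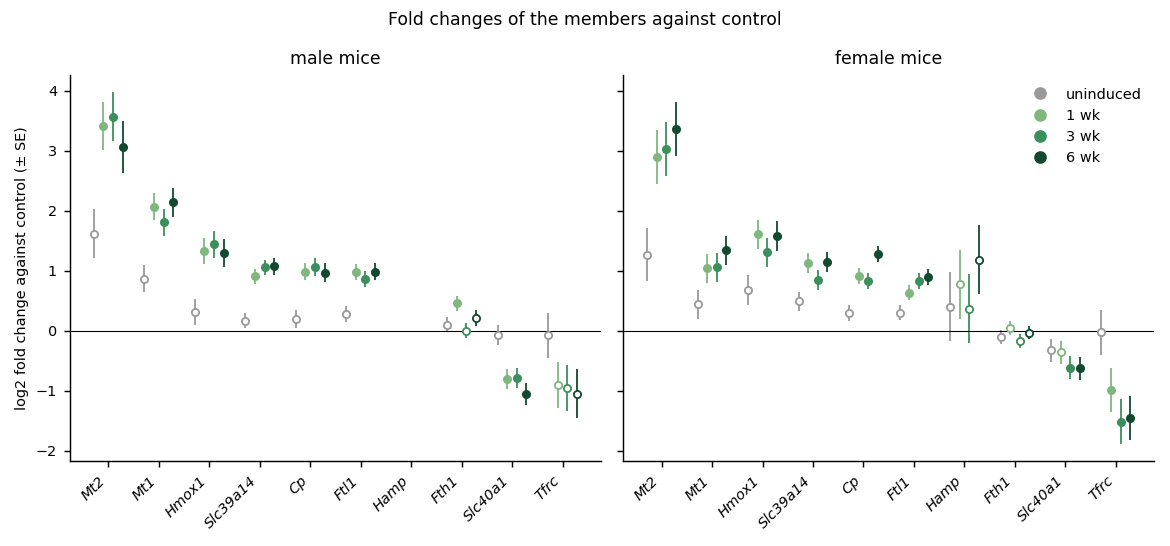
Log2 change against control (vertical axis, on log2(CPM + 0.5)) for each gene, in males and females, with bars of 1 SE. Uninduced hearts and those 1, 3 and 6 weeks after tamoxifen are shown. Filled points had an adjusted p under 0.05 and open points did not. After tamoxifen *Mt2* lies highest, from 2.89 to 3.57. At these times *Tfrc* and *Slc40a1* lie below 0 in both sexes, and *Fth1* lies near 0 except in males at 1 week (0.45).

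*Mt2*, the less abundant of the metallothionein pair in control hearts, had the steepest rise. In male controls it was at 5.92, 13.9 and 15.0 CPM, and at 6 weeks at 83.7, 180.1 and 54.7 CPM. Every male heart at 6 weeks was above every control, a rise of 8.37-fold (log2 change 3.06 ± 0.44 SE, adjusted p = 2.7e-05). In females the controls were at 12.9, 24.5, 9.66 and 11.4 CPM and the 6-week hearts at 123, 153, 199 and 119 CPM. The female groups were well apart, and the rise was 10.3-fold (log2 change 3.36, adjusted p = 5e-06). The gene had reached this range by the first week. Male hearts were then at 157, 179, 138 and 52.1 CPM, and female hearts at 121, 100.2, 118 and 85.0 CPM. The log2 changes at 1 week were 3.41 in males and 2.89 in females. At 3 weeks they were 3.57 and 3.03.

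*Mt1*, its neighbour, started from a higher level and rose less in proportion. Male controls were at 97.2, 121 and 118 CPM and 6-week males at 305, 467 and 837 CPM. The lowest 6-week male was still above the highest control, and the gene was 4.40-fold higher (log2 change 2.14, adjusted p = 1.3e-06). The 837 CPM came from replicate 4, the heart with the highest *Hba-a1*; without it the log2 change was 1.75 (adjusted p = 8.8e-07). Female controls were at 182, 231, 152 and 182 CPM and 6-week females at 417, 472, 475 and 515 CPM. Here too the groups did not overlap, with a 2.53-fold rise (log2 change 1.34, adjusted p = 0.00016). At 1 week *Mt1* was 4.19-fold higher in males and 2.05-fold higher in females.

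**Figure D2:**
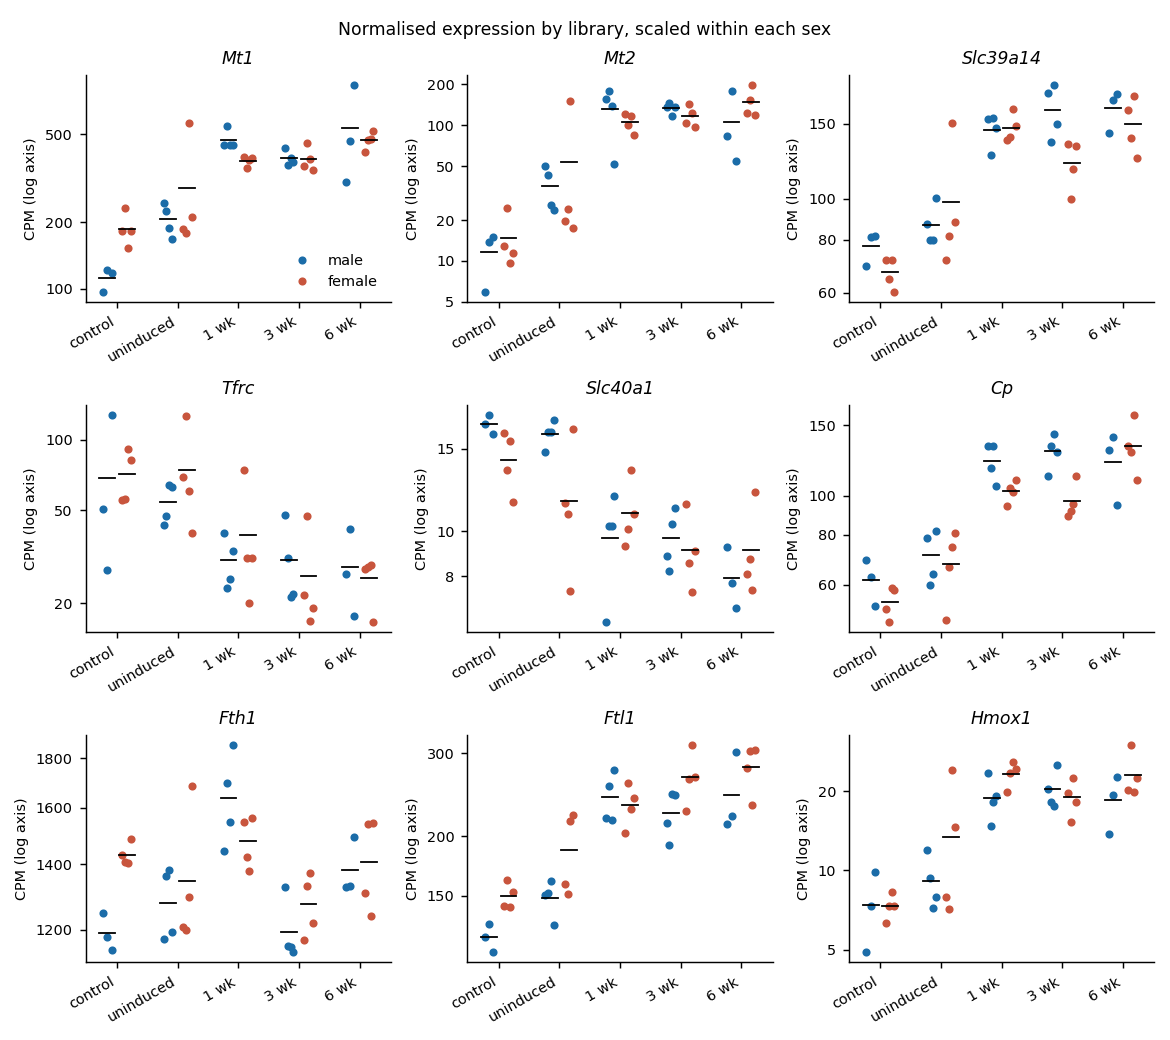
CPM (log axis) of 9 genes in each library, by group and sex; points are single hearts and the short lines the group means, and *Hamp*, near 0 in most hearts, is not shown. The induced hearts of *Mt2* sit between 52.1 and 199 CPM, above every control, while the *Tfrc* points of male controls spread from 27.7 to 127 CPM.

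The ratio of *Mt2* to *Mt1* therefore moved. Its median was 0.114 in male controls and 0.320, 0.338 and 0.275 at 1, 3 and 6 weeks. In females it went from 0.067 in controls to 0.295, 0.302 and 0.309. A pair of male hearts had a low ratio for their groups, namely 1-week replicate 4 at 0.117 and 6-week replicate 4 at 0.0653. These were also the hearts with the highest *Il11* of their groups (712 and 819 CPM). The ratios are described without a test.

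**Figure D3:**
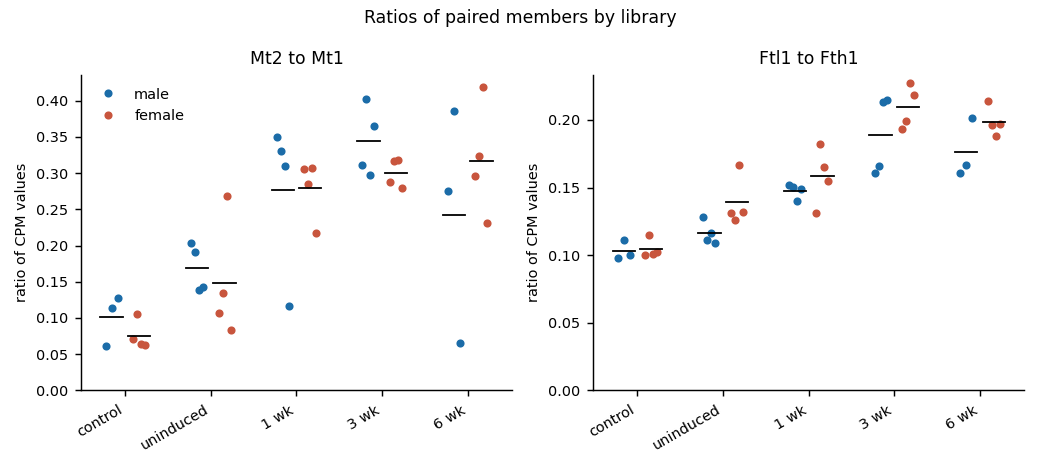
Ratio of *Mt2* to *Mt1* and of *Ftl1* to *Fth1* in each library, by group and sex; points are single hearts. Every induced heart lies above the controls of its sex for both ratios, except male 1-week replicate 4 (0.117) and male 6-week replicate 4 (0.0653) for *Mt2* to *Mt1*.

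Among the importers, *Slc39a14* rose and *Tfrc* went the other way. *Slc39a14* was at 69.3, 81.3 and 81.5 CPM in male controls and at 143, 171 and 176 CPM at 6 weeks. In female controls it was at 71.5, 64.7, 71.5 and 60.4 CPM and at 6 weeks at 162, 139, 175 and 125 CPM. In both sexes the groups were separate, and the rise at 6 weeks was 2.099-fold in males (log2 change 1.07) and 2.22-fold in females (1.15). At 1 and 3 weeks the log2 changes were 0.90 and 1.05 in males and 1.13 and 0.84 in females, all called.

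*Tfrc*, the message with 4 matches to the stem-loop pattern at its 3′ end, was at 55.2, 55.9, 91.2 and 81.9 CPM in female controls. At 6 weeks the female hearts were at 27.9, 28.5, 29.2 and 16.6 CPM, all below the lowest control. The gene was 2.74-fold lower (log2 change −1.46, adjusted p = 0.0035), and at 3 weeks 2.86-fold lower (adjusted p = 0.0035). The call at 1 week, where 1 heart of 4 was at 74.1 CPM and the others at 20.1 to 31.1 CPM, was at the threshold (log2 change −0.99, adjusted p = 0.0498) and was lost under most other settings. In males the log2 changes were of like size, −0.91, −0.95 and −1.05, and did not pass in limma (adjusted p = 0.073, 0.083 and 0.062). They did pass at all 3 time points in edgeR (adjusted p = 0.025, 0.035 and 0.030) and DESeq2 (adjusted p = 0.034, 0.049 and 0.038). Limma with array weights also called them (adjusted p = 0.0087, 0.014 and 0.029). Under other settings the adjusted p reached 0.28, 0.23 and 0.18. The male controls ranged widely, at 50.5, 27.7 and 127 CPM, so that replicate 3 fell among the 6-week hearts at 26.6, 41.4 and 17.7 CPM. With that control left out the male changes were −1.41, −1.46 and −1.56 and passed at all 3 time points (adjusted p = 0.0097, 0.011 and 0.0080). With the control at 127 CPM, replicate 4, left out instead, they were −0.32, −0.37 and −0.47 and did not pass (adjusted p = 0.51, 0.52 and 0.37), so the male value rests on which of 3 controls is used.

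The ferritin chains, whose messages both carry the 5′ stem-loop printed above, differed in their changes. *Ftl1*, the light chain, was at 123, 131 and 114 CPM in male controls and at 213, 221 and 301 CPM at 6 weeks. In females it was at 143, 162, 142 and 152 CPM in controls and at 279, 303, 233 and 304 CPM at 6 weeks. The groups did not overlap in either sex, and *Ftl1* was 1.97-fold higher in males and 1.86-fold higher in females at 6 weeks. The processed pseudogenes *Ftl2-ps*, *Ftl1-ps1* and *Ftl1-ps2* share sequence with *Ftl1*, and counting could have split reads between them. In female hearts they moved alongside it, by 0.79, 0.91 and 0.82 on the log2 scale at 6 weeks.

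*Fth1*, the heavy chain with ferroxidase activity, was the most abundant of the group and was called in 1 comparison with controls. Male controls were at 1249, 1180 and 1143 CPM and 6-week males at 1327, 1329 and 1493 CPM, a log2 change of 0.21 that did not pass. Female controls were at 1430, 1409, 1406 and 1485 CPM and 6-week females at 1308, 1541, 1238 and 1545 CPM. The female groups overlapped, with a log2 change of −0.03. The call came in males at 1 week, when the hearts were at 1446, 1697, 1547 and 1855 CPM (log2 change 0.45, adjusted p = 0.0088), and it was lost with only the compared groups in the fit (adjusted p = 0.054). The median ratio of *Ftl1* to *Fth1* accordingly went from 0.0998 in male controls to 0.150, 0.1897 and 0.166 at 1, 3 and 6 weeks, and from 0.102 in female controls to 0.1599, 0.209 and 0.197.

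*Slc40a1*, which encodes ferroportin and also carries a 5′ stem-loop, was the member called lower in both sexes in the main fit. It was at 16.98, 17.7 and 16.1 CPM in male controls and at 9.25, 7.73 and 6.83 CPM at 6 weeks. These groups were clearly separate, and the gene was 2.08-fold lower (log2 change −1.06, adjusted p = 0.00016), with −0.81 and −0.79 at 1 and 3 weeks. In females the controls at 16.2, 13.6, 15.6 and 11.5 CPM overlapped the 6-week hearts at 8.09, 8.72, 7.48 and 12.1 CPM. The female change passed at 3 weeks (−0.62, adjusted p = 0.019) and 6 weeks (−0.63, adjusted p = 0.014) and not at 1 week (−0.36, adjusted p = 0.18). Scaled to plain CPM without the authors' library factors, it did not pass at 1 or 3 weeks in males (−0.46 and −0.53) or at 3 or 6 weeks in females (−0.28 and −0.24); this scaling raised the median of all genes by 0.16 to 0.33 on the log2 scale.

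*Cp*, the ferroxidase that loads exported iron onto transferrin and an acute phase protein, rose where the exporter fell. Male controls were at 69.1, 62.6 and 53.2 CPM and 6-week males at 130, 140 and 94.9 CPM, which was 1.95-fold higher. Female controls were at 52.2, 48.4, 58.9 and 58.1 CPM and 6-week females at 133, 129, 159 and 110 CPM, which was 2.41-fold higher (log2 change 1.27, adjusted p = 1.8e-07). No induced heart at 6 weeks was within the control range in either sex. *Hmox1*, which frees iron from heme, was low and rose. It was at 4.91, 7.35 and 9.87 CPM in male controls and 13.8, 19.3 and 22.6 CPM at 6 weeks, a 2.46-fold difference. In females it was at 6.33, 7.36, 8.31 and 7.32 CPM in controls and at 20.1, 29.8, 19.9 and 22.4 CPM at 6 weeks, a 2.98-fold difference. Macrophages recycle heme iron and express both *Hmox1* and *Slc40a1*. All 9 macrophage markers were higher at 1, 3 and 6 weeks in both sexes, and their part in the values of either gene was not tested.

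*Hamp*, the hepcidin gene, was scarcely detected. Female controls held 1, 0, 0 and 1 reads (0 to 0.0554 CPM). A few induced hearts held most of the reads. Female 1-week replicate 2 held 95 reads (3.53 CPM), 6-week replicate 1 held 36 (1.43 CPM) and 6-week replicate 2 held 74 (3.18 CPM), while every other female heart was at or below 0.441 CPM. Other tissue genes were raised in these hearts, although not in them alone. The summed level of 3 atrial muscle genes was 155 CPM in the 1-week heart and 776 CPM in 6-week replicate 2, against 16.8 to 37.0 CPM in controls. The third, 6-week replicate 1, had albumin (*Alb*), a liver gene, at 61.7 CPM, against 1.64 to 3.19 CPM in controls. Conversely, 1-week replicate 1 had an atrial sum of 78.7 CPM with 0 *Hamp* reads, and uninduced replicates 1 and 2 had *Alb* at 20.2 and 23.6 CPM with *Hamp* at 0.428 and 0.171 CPM. Their part in the *Hamp* values was not tested. No change in *Hamp* passed in limma, with adjusted p = 0.35, 0.67 and 0.10 from the earliest to the latest time point. The 6-week comparison did pass in edgeR (adjusted p = 0.031) and DESeq2 (adjusted p = 0.0098) on the recovered reads, and the 1-week comparison passed in DESeq2 (adjusted p = 0.023). *Hamp* met the filter of at least 0.5 CPM in at least 3 libraries only through 1-week replicate 2 and 6-week replicates 1 and 2. The calls rest on the same hearts that brought the gene into the tests, so no conclusion is drawn from them. The 6-week value depended on single hearts: without 6-week replicate 2 limma gave an adjusted p of 0.38, and without replicate 4 it gave 0.043. With controls at 0 to 1 read no fold is given.

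**Figure D4:**
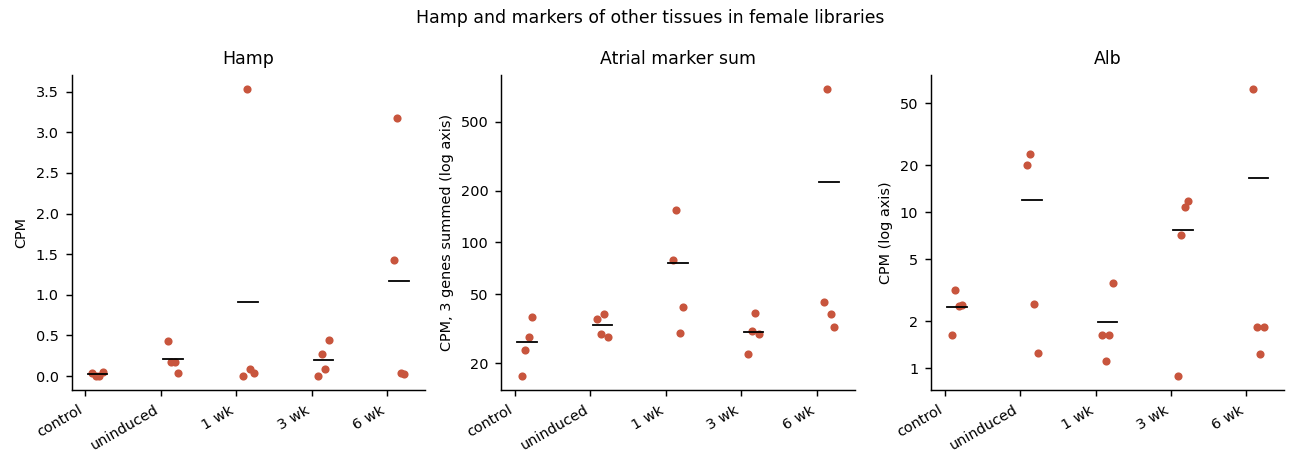
CPM of *Hamp* (linear axis), of 3 atrial muscle genes summed (log axis) and of *Alb* (log axis) in each female library by group. Points are single hearts. The hearts with *Hamp* above 1 CPM are 1-week replicate 2 and 6-week replicates 1 and 2, of which the first and the last have the highest atrial sums (155 and 776 CPM); 1-week replicate 1, at 78.7 CPM, had 0 *Hamp* reads.

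After the first week little further change was found. Between 1 and 3 weeks none of the genes was called in limma in either sex (male background 0.0118% higher and 0.00591% lower, female 0.165% and 0.0531%); 1 had an unadjusted p under 0.05 in males, *Fth1*, and 0 in females, and DESeq2 called 1 and 0 while edgeR called 0 in both. Between 1 and 6 weeks 0 were called (male background 0.13% and 0.0354%, female 0.891% and 0.142%), with 0 in males and 1 in females, *Cp* (log2 change 0.36), at an unadjusted p under 0.05. Between 3 and 6 weeks 0 were called as well, as was 0% of all genes in each direction in both sexes, and the unadjusted counts were again 0 in males and 1 in females, again *Cp* (0.44). Both count tools called 0 in these later pairs.

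The uninduced hearts lay between controls and induced hearts for the metallothioneins, at least in males. Male uninduced *Mt2* was at 49.9, 43.05, 25.98 and 23.8 CPM and *Mt1* at 245, 225, 188 and 167 CPM. Neither group overlapped the controls, although the log2 changes of 1.61 and 0.87 did not pass in limma (adjusted p = 0.092 and 0.094). None of the 9 male genes was called in limma, where 0.561% of all genes were higher and 0.0354% lower; 2 had an unadjusted p under 0.05, and DESeq2 called 2 and edgeR 0. Among females 0 of 10 were called (background 2.41% and 0.466%), 5 had an unadjusted p under 0.05, and DESeq2 called 3 and edgeR 0. Female uninduced replicate 3 stood apart for several members, with *Mt1* at 563 CPM and *Hmox1* at 23.9 CPM. All 9 macrophage markers were higher in uninduced females than in controls, with a median of 0.90 on the log2 scale, and none of the 9 was called in uninduced males; their part was not tested. Without replicate 3 the female *Mt2* log2 change was 0.55 rather than 1.27, and that of *Mt1* was 0.05.

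The uninduced group also served as a reference of the same genotype. At 6 weeks, 6 of 9 male genes were higher and 1 lower than in uninduced hearts (13% and 7.4% of all genes), and 6 of 10 female genes were higher and 1 lower (13.7% and 9.08%). The same 6 genes that rose against controls were higher here in both sexes. In females 3 of these calls were lost with only the compared groups in the fit, namely *Mt1* (adjusted p = 0.087), *Hmox1* (adjusted p = 0.094) and *Slc39a14* (adjusted p = 0.067), and that of *Hmox1* also without uninduced replicate 1 (adjusted p = 0.053) or 2 (adjusted p = 0.056). *Mt2* was higher by 1.45 on the log2 scale in males and 2.09 in females, both smaller than against controls. The male *Mt2* call was lost without 6-week replicate 3 (0.98, adjusted p = 0.095) or uninduced replicate 4 (1.28, adjusted p = 0.053). The gene called lower was *Slc40a1* in males (−0.99, adjusted p = 0.00025) and *Tfrc* in females (−1.43, adjusted p = 0.0077). Male *Tfrc* was not called in the main fit, yet lay at −0.85 to −1.02 under other settings (adjusted p = 0.029 to 0.14). It passed with only the compared groups in the fit (−0.97, adjusted p = 0.029) and without 6-week replicate 3 (−1.28, adjusted p = 0.034). Whether the sexes differed was not tested.

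Other genes of metal handling were read from 12 lists holding 99 genes, chosen with earlier results of these data known. Of the 90 tested in males at 6 weeks, 25 were higher and 10 lower with a median log2 change of 0.08, where 16.2% of all tested genes were higher and 10.9% lower. In females 31 were higher and 19 lower with a median of 0.03, where 21.7% of all tested genes were higher and 21% lower, so the lower calls of both sexes lay near the background. The list that stood highest was iron uptake, in which 9 of 10 tested genes were higher in males and 8 of 10 in females, with medians of 1.12 and 1.34. *Trf*, the iron carrier transferrin, went from a mean of 27.9 to 142 CPM in males and from 24.2 to 175 CPM in females. *Lcn2*, which binds iron-carrying siderophores, went from 1.19 to 28.2 CPM in males and from 1.68 to 21.0 CPM in females. The metalloreductases *Steap2* and *Steap3* rose by 2.488 and 1.202 on the log2 scale in males and by 2.60 and 1.38 in females. *Slc11a1*, a metal transporter of phagocytes, rose by 1.19 and 1.30. The second transferrin receptor, *Tfr2*, was at 0 in all male controls and at a mean of 0.591 CPM at 6 weeks. *Tfr2* and *Steap1* are counted among the higher genes of this list in both sexes. Their highest controls were at 0 and 0.049 CPM in males and 0.129 and 0.166 CPM in females. Both genes met the filter of at least 0.5 CPM in at least 3 libraries only through transgenic hearts, so no conclusion is drawn from their calls.

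The zinc importers other than *Slc39a14* gave 4 higher and 0 lower of 12 in males and 6 higher and 2 lower (*Slc39a5* and *Slc39a2*) in females, among them *Slc39a1* (1.26 and 1.39) and *Slc39a6* (1.06 and 1.24). *Slc39a8*, the closest relative of *Slc39a14*, was higher by 0.96 in males and 2.37 in females. *Slc39a8*, *Steap1* and the list genes below other than *Hp* and *G6pdx* are outside the naming rule and were picked after their values were seen. Of 7 zinc exporters, *Slc30a7* was higher in both sexes, *Slc30a1* and *Slc30a4* in females, *Slc30a9* was lower in both and *Slc30a2* in males. *Mt3* and *Mtf1*, the 2 tested genes of the list of other metallothioneins, were not called in either sex.

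In the lists of mitochondrial iron, heme synthesis, iron regulatory proteins and iron storage, none of which holds the 10 members, 0 genes were called higher at 6 weeks. Of 12 genes of mitochondrial iron and iron-sulfur assembly, 7 were lower in females. The mitochondrial iron importer *Slc25a37* was among the 7, at −0.87. Of 8 genes of heme synthesis, *Cpox* was lower in males, and *Alas1*, *Alad*, *Urod* and *Ppox* were lower in females by 0.36 to 0.68 on the log2 scale. Of 3 iron regulatory protein genes, *Ireb2* was lower in males (−0.46) and none was called in females, and of 3 genes of iron storage and ferritin turnover, *Pcbp2* was lower in females (−0.48) and none was called in males. Cardiomyocyte markers fell in part at the same time, 1 of 8 in males and 4 of 8 in females, and their part in these lists was not tested. Among 6 genes that control hepcidin, *Hfe* and *Tmprss6* were higher and *Neo1* lower in both sexes, with *Bmp6* lower in males and *Hjv* in females. Of 8 genes of ferroxidases and copper handling, *Hephl1* and *Atox1* were higher in both sexes and *Atp7a* in females, where *Slc31a2* was lower. Heme breakdown and transport gave 4 higher and 1 lower of 11 in males and 5 and 1 in females, with the heme transporter *Flvcr2* the lower gene in both. *Blvrb*, which acts downstream of *Hmox1*, and *Lrp1* were higher in both sexes, *Abcg2* in males, and *Blvra* and the macrophage receptor *Cd163* in females. It included haptoglobin (*Hp*), an acute phase protein that captures free hemoglobin, which went from 0.278 to 178 CPM in males and from 0.355 to 125 CPM in females. *Hp* was also called in uninduced hearts, by 3.20 in males and 2.09 in females. Of the other list genes within the naming rule, *Slc39a1* was called higher there in both sexes (0.58 in males and 0.71 in females). *Trf* was called in uninduced females (1.09) and *Lcn2* in uninduced males (1.26), and the rest were not called. *Lcn2* in uninduced females had a mean of 22.3 CPM (SD 37.8) and was not called. Of 8 NRF2 target genes, 3 were higher in males and 4 in females at 6 weeks. Among them were *G6pdx* (1.12 and 1.01), *Nqo1* and *Slc7a11* in both sexes and *Txnrd1* in females. For *Hephl1* and *Tmprss6*, no control of either sex reached 0.5 CPM. The same held for *Hp* and *Slc7a11* in males and for *Slc39a4*, a zinc importer called higher, in females. In those sexes these genes met the filter only through transgenic hearts, so their calls are given as description.

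**Figure D5:**
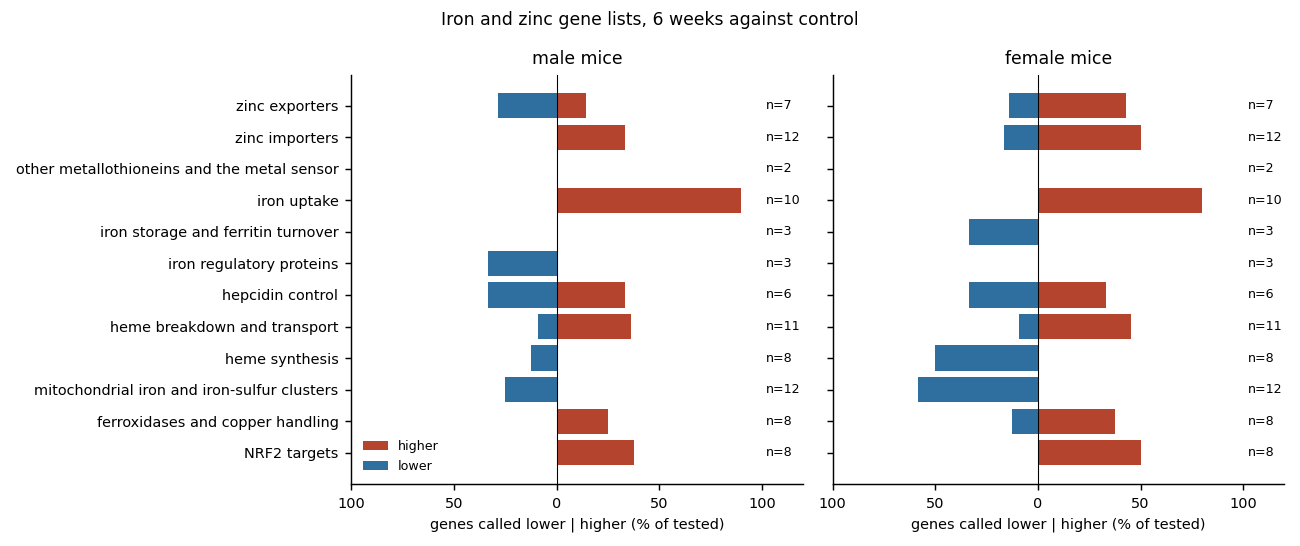
Share of the tested genes of each of 12 lists called lower (left) or higher (right) than control at 6 weeks, in percent, by sex. Iron uptake reaches farthest right, with 9 of 10 genes in males and 8 of 10 in females, and mitochondrial iron lies to the left. The iron uptake counts include *Tfr2* and *Steap1*, for which no control reached 0.5 CPM.

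Across the 18 male and 20 female assigned libraries, the genes outside the group whose log2 levels ran most like those of *Mt2* were *Il13ra1* (Pearson r 0.954 in males and 0.950 in females), *Il33* (0.938 and 0.949) and *Cpne8* (0.938 and 0.949), out of 16600 genes. *Mt1* itself had r of 0.851 and 0.967. The libraries share groups and the correlations are given as a description.

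Per kilobase of the canonical transcript, *Fth1* stayed the most abundant message. In the group means of both sexes, *Hmox1* lay below *Tfrc* in controls and above it at 6 weeks. In male controls *Fth1* was at 1281 CPM per kb, *Mt1* at 147, *Ftl1* at 126, *Mt2* at 15.5, *Slc39a14* at 14.9, *Cp* at 14.8, *Tfrc* at 14.0, *Slc40a1* at 4.89 and *Hmox1* at 4.68. At 6 weeks *Fth1* was still highest at 1488 CPM per kb and *Slc40a1* lowest at 2.29. *Hmox1* was at 11.8, *Tfrc* at 5.83 and *Mt2* at 142. In females *Mt2* went from 19.5 to 198 CPM per kb, *Tfrc* from 14.5 to 5.22 and *Hmox1* from 4.65 to 14.6. Among controls, the 4 neighbours from *Mt2* to *Tfrc* lay too close for their order to be read from these hearts. So did *Slc40a1* and *Hmox1*.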

How the data were processed

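Poly(A) RNA of mouse hearts was sequenced as paired-end reads with a strand-directional kit. The signal values the authors deposited are in CPM: reads were aligned with STAR to GRCm39, assigned to genes with featureCounts and scaled with edgeR, in 1 table per sex whose filter on low genes is not given in the sources used here. All values were whole multiples of 1 read within 0.001, and columns summed to 817395–1193422 in males and 848402–1196278 in females, so reads could be recovered for the count tools. The authors' library factors were kept.

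The main test was limma (3.58.1, R 4.3.3) using its intensity trend (the spread modelled on the mean level) after taking log2(CPM + 0.5), over genes with at least 0.5 CPM in at least 3 libraries (16931 male and 16956 female genes), with all groups of a sex in 1 fit and Benjamini-Hochberg adjustment over all genes. Fold changes on this scale understate changes of low genes. The rule for naming genes took the 10 members, *Il11*, list genes that passed in both sexes at 6 weeks with a log2 change of 1 or more in size, and the 3 genes most correlated with *Mt2*; other list genes, *Hba-a1*, *Alb* and the ferritin pseudogenes were named after their values were seen. The members, lists and tests were chosen with earlier results of these data known. Replicates are separate mice. The 54 replicate pairs differed by more than sampling noise (lowest chi-square per gene 7.08). On simulated 6-week data the fit recovered 68% of genes changed by 1 log2 unit and 98% changed by 2 in males (16872 genes), and 88% and 99% in females (16838 genes). False calls numbered 7 in males and 9 in females. The simulation changed 100 genes by each size, drawn without low genes, and left all others unchanged. Its recovery therefore does not carry over to low genes or to data in which many genes change. Alternatives were edgeR 4.0.16, DESeq2 1.42.0, plain CPM, other filters and pseudocounts, array weights, a replicate block and leaving out each library. Left out were 2 male libraries whose title and description name different groups. No other column was without a sample. The male count of 1 gene list is not reported here.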

Additional observations from a re-analysis of the deposited data

Results flagged for a closer look

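In 77 sets of 1 gene in 1 group of 4 hearts, which share the same hearts, 6 held a heart far from the other 3 (chance gives about 1 in 20 sets). *Mt1* was at 544 CPM in male 1-week replicate 2, the other 3 being at 446 to 448 CPM. *Fth1* was at 1327 CPM in male 3-week replicate 1. Female uninduced replicate 3 stood apart for both metallothioneins, with *Mt1* at 563 CPM and *Mt2* at 151 CPM. *Hamp* was at 3.53 CPM in female 1-week replicate 2, and *Tfrc* was at 16.6 CPM in female 6-week replicate 4.

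The 2 male libraries in no group gave values above the highest male control for the genes listed here. In the library titled control, *Mt1* was at 525 CPM, *Mt2* at 149, *Slc39a14* at 206, *Fth1* at 1286, *Ftl1* at 235, *Hmox1* at 18.5 and *Cp* at 168 CPM. In the library titled 6 week, *Mt1* was at 159 CPM, *Mt2* at 17.9, *Slc39a14* at 82.98, *Ftl1* at 152 and *Slc40a1* at 19.7 CPM.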

How the results depend on the processing

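Of 2807 recomputed values for 152 results on these genes, 2735 kept the call and its direction or stayed uncalled, 29 no longer passed, 42 newly passed and 1 reversed. Among the uncalled values in the 2735, 105 changed sign. In the uninduced comparison, in males 2 genes, *Mt1* and *Mt2*, were called under plain CPM, with only the compared groups in the fit, in DESeq2 and with array weights, and in females 2 were called under plain CPM, 3 in DESeq2 and 0 to 2 with each replicate left out. Between 1 and 3 weeks, 1 male gene, *Fth1*, was called in DESeq2 and with array weights. In females, 4 genes were called at 6 weeks against uninduced with only those groups in the fit. The reversed value was *Fth1* in females at 6 weeks, 0.37 under plain CPM. Female *Tfrc* at 1 week had adjusted p between 0.0166 and 0.156 under other settings and between 0.0068 and 0.173 with each library left out. Female *Slc40a1* at 3 weeks was lost without control replicate 1 or 3 or week 3 replicate 3. The cause of these changes was not tested. Same-numbered mice did not deviate together (mean correlation 0.0132 in males over 33 pairs and 0.0255 in females over 40), and with the replicate block the counts stayed at 8 in males at 1 week and 7 at 6 weeks. *Hamp* is limited by depth, with at most 1 read in controls.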

Other observations

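For the library titled control and described otherwise, the remaining values were *Tfrc* at 17.7 CPM, *Slc40a1* at 11.3 CPM and *Il11* at 511 CPM. Its *Tfrc* and *Slc40a1* values lay below the lowest male control. For the library titled 6 week, *Tfrc* was at 37.2 CPM, *Fth1* at 1243 CPM, *Hmox1* at 7.56 CPM, *Cp* at 63.1 CPM and *Il11* at 0.597 CPM. Neither library entered any comparison.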
